A study of Mus musculus with 21 samples.

Results

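Alcohol dehydrogenases (ADH) oxidize alcohols to aldehydes or ketones, and aldehyde dehydrogenases (ALDH) oxidize aldehydes to acids. In liver both families clear ethanol and its product acetaldehyde, convert retinol through retinaldehyde to retinoic acid, and remove formaldehyde and aldehydes made from lipids. Mouse liver RNA was examined here for 10 members of these families: *Adh1*, *Adh4*, *Adh5*, *Adh7*, the pseudogene *Adh6-ps1*, *Aldh1a1*, *Aldh1a7*, *Aldh1b1*, *Aldh2* and *Aldh3a2*. They were chosen by gene symbol from the 46078 genes of the count table, and the list was drawn up with earlier results of these libraries in view, among them the difference of *Adh6-ps1* between the genotypes on the control diet. The values below therefore describe the members, and the p-values, which come from a fit across all genes, are not independent evidence about the list.

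The data were bulk RNA sequencing of liver from 21 male mice, in 6 groups that combined 2 genotypes and 3 diets. KO stands here for mice that lack *Cse* (labelled cse), the gene symbol of which is *Cth* and which encodes cystathionine γ-lyase. Their comparison animals carry the label WT, while the study's text describes them as heterozygous, so the label is used without a statement about their *Cth* alleles. The KO is a whole-body knockout kept on a mixed background of strain 129 and C57BL/6, the animals were at least 9 weeks old, and every group was under calorie restriction. The diets were defined amino acid mixes: a control diet (CTR), the same without cysteine (noCys) and the same without tryptophan (noTrp), with the other amino acids raised in proportion. WT CTR had 3 libraries, KO CTR 4, WT noCys 4, KO noCys 3, WT noTrp 2 and KO noTrp 5, each titled as a biological replicate and taken here as 1 animal.

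Library totals ran from 8889951 to 27230852 counted fragments, and each library's median correlation with its own group was 0.964 to 0.984, lowest in WT noTrp, where only 2 libraries stood for the group. Levels are given as CPM, counts brought to a common library size after scaling by TMM, the trimmed mean of M-values. *Cth* stood at 108 to 452 CPM in the 9 WT libraries and at 6.34 to 15 CPM in the 12 KO libraries, which matched the labels. The hepatocyte markers were abundant in every library, and 4 of 10 markers of stomach and gut epithelium (*Gkn1*, *Gkn2*, *Gkn3* and *Muc5ac*) were at 0 in all 21, while the list summed to 93.4 to 176 CPM over the groups. In bulk tissue, fewer cells of a type and less RNA per cell cannot be told apart.

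Differences between groups are log2 fold changes, each with its standard error (SE), and a gene was called when its Benjamini-Hochberg adjusted p over the 14370 tested genes, from edgeR's quasi-likelihood test, was under 0.05. All 10 members passed the filter on low counts. The lowest count of a member in any library was 8 (*Adh6-ps1*) and the highest was 75759 (*Aldh2*).

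The 5 *Adh* members lie on the plus strand of chromosome 3 (GRCm38) within 237.7 kb, with *Adh6a* and *Adh6b*, at no more than 13 counts in any library, between *Adh1* and *Adh6-ps1*. In order they are *Adh7* (ENSMUSG00000055301, chr3:138217760-138233382), *Adh1* (ENSMUSG00000074207, chr3:138260991-138290698), *Adh6-ps1* (ENSMUSG00000090306, chr3:138374121-138395002), *Adh4* (ENSMUSG00000037797, chr3:138415466-138430892) and *Adh5* (ENSMUSG00000028138, chr3:138443093-138455499). *Cth*, the gene knocked out, lies on the same chromosome at chr3:157894248-157925077, 19.44 Mb beyond the end of *Adh5*. The *Aldh* members are dispersed, except that *Aldh1a1* (ENSMUSG00000053279, chr19:20492715-20643465) and its paralogue *Aldh1a7* (ENSMUSG00000024747, chr19:20692953-20727562) are neighbours on opposite strands. *Aldh1b1* (ENSMUSG00000035561) is at chr4:45799022-45804604, *Aldh2* (ENSMUSG00000029455) at chr5:121566027-121593824 and *Aldh3a2* (ENSMUSG00000010025) at chr11:61223417-61267464. Of all stretches of 61 bases in the members' transcripts, those of *Aldh1a1* (2.03% of its stretches) and *Aldh1a7* (4.99%) were the only ones found in another gene of the families, so a small part of their reads could be split between the pair.

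RefSeq windows around annotated start sites (250 bases before to 50 after, GRCm38.p6) were held for 8 of the 10 members, in 10 windows. They are shown for *Adh1*, *Adh4* and *Adh7*, which were lower together in KO noCys, and for *Adh5*, the member of the cluster that no comparison called. The windows read 5′ to 3′ on the plus strand, and capitals mark CG dinucleotides.
Adh7, chr3:138217523-138217822: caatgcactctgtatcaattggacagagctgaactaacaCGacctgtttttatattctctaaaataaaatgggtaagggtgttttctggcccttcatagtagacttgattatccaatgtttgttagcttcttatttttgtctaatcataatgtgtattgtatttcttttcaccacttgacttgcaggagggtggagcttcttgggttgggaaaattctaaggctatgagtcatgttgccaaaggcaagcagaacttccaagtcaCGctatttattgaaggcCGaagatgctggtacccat
Adh1, chr3:138277335-138277634: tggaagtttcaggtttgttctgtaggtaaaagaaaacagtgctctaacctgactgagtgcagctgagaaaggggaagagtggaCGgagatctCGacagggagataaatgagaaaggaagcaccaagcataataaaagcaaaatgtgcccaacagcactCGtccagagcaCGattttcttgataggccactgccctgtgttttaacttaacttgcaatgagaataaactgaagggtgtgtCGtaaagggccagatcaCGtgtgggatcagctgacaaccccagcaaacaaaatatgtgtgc
Adh4, chr3:138415247-138415546: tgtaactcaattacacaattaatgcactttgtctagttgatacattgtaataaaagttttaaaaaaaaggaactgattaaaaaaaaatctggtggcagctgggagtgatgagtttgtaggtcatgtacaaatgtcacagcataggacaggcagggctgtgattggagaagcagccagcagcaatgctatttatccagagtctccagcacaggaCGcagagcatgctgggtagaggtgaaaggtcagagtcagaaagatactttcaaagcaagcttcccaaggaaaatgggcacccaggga
Adh5, chr3:138442843-138443142: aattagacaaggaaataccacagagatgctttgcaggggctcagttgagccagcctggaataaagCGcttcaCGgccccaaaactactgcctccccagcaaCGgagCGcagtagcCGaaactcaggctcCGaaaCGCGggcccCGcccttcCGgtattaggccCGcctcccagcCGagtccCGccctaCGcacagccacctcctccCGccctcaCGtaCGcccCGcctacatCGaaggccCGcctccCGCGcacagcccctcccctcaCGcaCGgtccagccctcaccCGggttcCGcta

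The *Adh5* window held 26 CG dinucleotides and 65.0% G or C, whereas *Adh1* held 6, *Adh7* 3 and *Adh4* 1, with 45.3%, 39.3% and 42.3% G or C. The median over 32851 such windows was 7 CG dinucleotides; 83.1% of windows held fewer than *Adh5* and 5.43% held fewer than *Adh4*. Another annotated *Adh5* window, at chr3:138436950-138437249, held 3. A search of both strands for TGACNNNGC, the core of the antioxidant response element (in 12.4% of all windows), and TGATGNAA, a CCAAT enhancer-binding protein and activating transcription factor composite element (3.97%) found no match in the 10 windows. TATAAA, which 13.6% of windows hold, was found 1 time each in *Adh7*, the upstream *Adh5* window and *Aldh1a7*, in each case over 200 bases before the start site, and no match overlapped another. A match or its absence describes these letters only.

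In WT CTR, levels per kb of exon put *Adh1* first at 701 ± 29.8 CPM per kb (SD, n = 3), followed by *Aldh2* at 512 ± 46.7 and *Aldh1a1* at 194 ± 12.1. *Adh4* (87.3 ± 14.9) and *Adh5* (82.2 ± 7.45) overlapped, and *Aldh1a7* followed at 68.7 ± 2.71. *Aldh3a2* (44.9 ± 6.01), *Adh6-ps1* (32.6 ± 16.1) and *Aldh1b1* (20.1 ± 5.71) overlapped each with its neighbour in the order. *Adh7* was lowest at 12.6 ± 3.19 CPM per kb. The ethanol and acetaldehyde pair, *Adh1* and *Aldh2*, thus led the members, and the class IV gene *Adh7*, known mainly from stomach epithelium, came last.

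**Figure D1:**
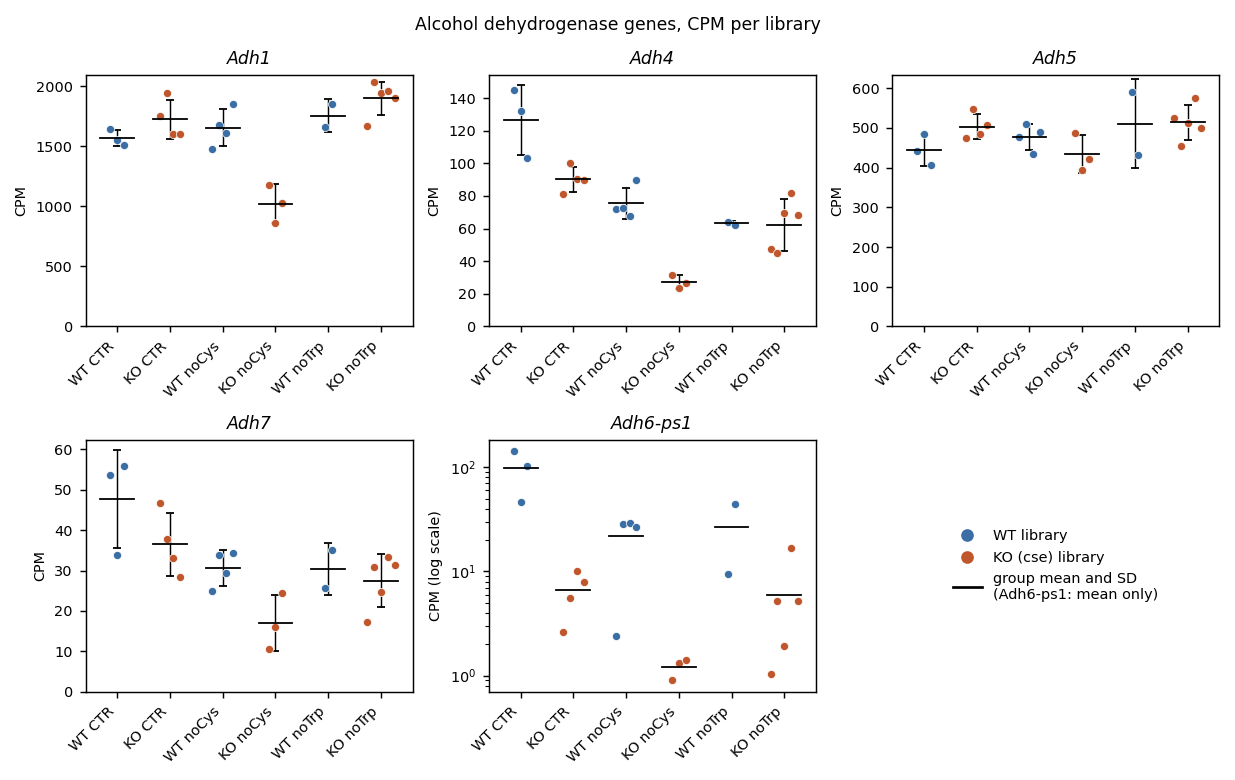
CPM of the 5 alcohol dehydrogenase members in each of the 21 libraries (points), by group, with the group mean as a line and the SD as a bar; *Adh6-ps1* is on a log scale with its mean only. The 3 KO noCys libraries lie below all other libraries for *Adh1* (857 to 1180 CPM) and *Adh4* (23.4 to 31.7 CPM), while *Adh5* overlaps between all groups.

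The question asked first was which members differed between KO and WT when dietary cysteine was absent, since KO mice lack the enzyme that makes cysteine from cystathionine. Without cysteine, KO liver had lower RNA for the alcohol dehydrogenases *Adh4*, *Adh1*, *Adh7* and *Adh6-ps1* and for the mitochondrial aldehyde dehydrogenase *Aldh2*, and higher RNA for *Aldh1a7*. Of the 10 members, 6 were called, 5 lower and 1 higher, beside 28.2% of all tested genes (13.4% lower and 14.8% higher). The members' median log2 fold change was -0.29, against -0.02 over all tested genes. *Adh5*, *Aldh1a1*, *Aldh1b1* and *Aldh3a2* were not called.

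*Adh1* encodes the class I enzyme, which carries most ethanol oxidation in liver and also oxidizes retinol. In WT noCys its CPM were 1480, 1680, 1610 and 1850, against 1180, 857 and 1030 in KO noCys. The KO libraries were all below the WT libraries, with means of 1020 ± 163 (SD, n = 3) and 1660 ± 155 (SD, n = 4). The log2 fold change was -0.69 (SE 0.12, adjusted p = 0.000248), a level 0.619 times that of WT. On the other diets *Adh1* was at 1640, 1550 and 1510 CPM in WT CTR, 1750, 1940, 1600 and 1600 in KO CTR, 1660 and 1850 in WT noTrp, with 1670, 2030, 1940, 1960 and 1900 in KO noTrp. Every library outside KO noCys was therefore above every KO noCys library.

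*Adh4*, the class II enzyme, showed the largest fold among the protein-coding members. It stood at 72.1, 72.4, 68 and 89.5 CPM in WT noCys, against 31.7, 23.4 and 26.9 CPM in KO noCys. The groups did not overlap, and the fold change was -1.47 (SE 0.18, adjusted p = 1.12e-05), or 0.36 times WT. In the other groups *Adh4* was at 145, 132 and 103 CPM in WT CTR, 81.3, 100, 90.1 and 89.7 in KO CTR, 64.2 and 62.4 in WT noTrp, with 47.3, 44.9, 69.3, 81.9 and 68.4 in KO noTrp. WT CTR was thus the highest group, the other 4 groups were intermediate, and KO noCys was the lowest.

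*Adh7* encodes the class IV enzyme, an efficient retinol dehydrogenase. It was low throughout, at 25, 33.9, 29.4 and 34.4 CPM in WT noCys, against 10.7, 16.1 and 24.5 CPM in KO noCys, and the highest KO value lay just below the lowest WT value. The fold change was -0.83 (SE 0.26, adjusted p = 0.0213). This call ended without KO noCys replicate 1 (-0.60, adjusted p = 0.0997) or replicate 3 (-0.77, adjusted p = 0.0907). *Adh7* was at 53.7, 33.9 and 55.8 CPM in WT CTR, 46.7, 37.9, 33.1 and 28.5 in KO CTR, 25.8 and 35 in WT noTrp, with 17.3, 30.9, 24.6, 33.4 and 31.3 in KO noTrp. The antisense gene 0610031O16Rik shares 108 bases with *Adh7* exons, 2.85% of them, and was also lower in KO noCys than in WT noCys (-0.56, adjusted p = 0.00641). Without a stated strand setting, reads from the shared bases cannot be told apart, and the same holds for 136 bases that *Adh1* shares with Gm16559 and 130 that *Aldh2* shares with Gm42879.

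*Adh6-ps1* is a transcribed pseudogene. By SD relative to the mean it was the member that varied most between libraries in each group except KO noCys. In WT CTR it stood at 142, 46.5 and 103 CPM, and in KO CTR at 2.64, 5.57, 10.2 and 7.86 CPM. This control-diet difference (-3.90, SE 0.75), the only member call of KO CTR against WT CTR, was in view when the list was drawn up and is given as a description. It was beside 0.32% of all genes called, 0.251% lower, and it was not called in 6 of the 7 fits that left out a library of these groups (adjusted p up to 0.116). Without cysteine it stood at 2.39, 28.5, 29.4 and 26.7 CPM in WT and at 0.902, 1.33 and 1.41 CPM in KO, a fold change of -4.08 (SE 0.96, adjusted p = 0.00347) that limma-voom with quality weights did not call (-3.37, adjusted p = 0.0708). WT noCys replicate 1, at 2.39 CPM, lay below the lowest KO CTR library, and its *Cth* level was 260 CPM. Without tryptophan *Adh6-ps1* was at 9.46 and 44.3 CPM in WT against 1.03, 5.23, 1.94, 16.6 and 5.15 CPM in KO, which overlapped and was not called (-2.25, SE 0.76, adjusted p = 0.32). Over the 14 alternatives of this comparison its fold change ran from -3.07 to -0.76.

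*Adh5* encodes the class III enzyme, which removes formaldehyde bound to glutathione and reduces S-nitrosoglutathione. It was at 442, 486 and 406 CPM in WT CTR, 474, 547, 486 and 507 in KO CTR, 476, 511, 434 and 491 in WT noCys, 488, 394 and 422 in KO noCys, 590 and 432 in WT noTrp, with 526, 455, 513, 575 and 501 in KO noTrp. In KO noCys against WT noCys the fold change was -0.14 (SE 0.12, adjusted p = 0.39), and no comparison called *Adh5*. The groups overlapped in each comparison, and of the alternatives only limma-voom called it, lower in KO noCys than in KO noTrp (-0.28, adjusted p = 0.0262).

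Among the aldehyde dehydrogenases, *Aldh2*, the mitochondrial enzyme that clears most acetaldehyde, was lower in KO noCys. It stood at 2880, 3040, 2520 and 3180 CPM in WT noCys, against 2230, 2150 and 2120 CPM in KO noCys, without overlap (-0.42, SE 0.12, adjusted p = 0.00985). When library totals alone set the scale, which moved the median of all genes in this comparison from -0.02 to 0.20, *Aldh2* (-0.21, adjusted p = 0.19) and *Adh7* (-0.60, adjusted p = 0.10) were no longer called and *Aldh1a1* was (0.57, adjusted p = 0.0246). *Aldh2* was at 2660, 2840 and 2370 CPM in WT CTR, 2160, 2700, 2430 and 2430 in KO CTR, 3190 and 2390 in WT noTrp, with 2500, 2250, 2400, 2320 and 2310 in KO noTrp. No other comparison called it.

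*Aldh1a7*, a rodent paralogue of *Aldh1a1*, was the member that was higher in KO. It stood at 99.8, 88.5, 84.8 and 96.9 CPM in WT noCys, against 188, 129 and 148 CPM in KO noCys, without overlap (0.74, SE 0.17, adjusted p = 0.00262). On the control diet it was at 146, 136 and 145 CPM in WT and at 205, 237, 182 and 172 CPM in KO, again without overlap, yet the difference was not called (0.49, SE 0.17, adjusted p = 0.31). Without tryptophan it was at 92.5 and 47.1 CPM in WT against 141, 146, 156, 174 and 161 CPM in KO (1.16, SE 0.20, adjusted p = 0.00959). KO libraries were thus above WT libraries on each of the 3 diets.

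*Aldh1a1* encodes the cytosolic retinaldehyde dehydrogenase. It was at 1030, 940, 716 and 859 CPM in WT noCys, against 1390, 891 and 1140 CPM in KO noCys, which overlapped (0.37, SE 0.19, adjusted p = 0.166). Its other levels were 934, 914 and 1030 CPM in WT CTR, 1090, 1510, 1100 and 972 in KO CTR, 808 and 496 in WT noTrp, with 1110, 837, 1410, 1060 and 1170 in KO noTrp. *Aldh1a1* was called in no comparison, although the KO noTrp libraries were all above the WT noTrp libraries (0.78, SE 0.22, adjusted p = 0.191) and DESeq2 called that difference (adjusted p = 0.0356). Across the 21 libraries its log2 CPM followed that of *Aldh1a7* with Pearson r = 0.846, the highest of the 45 member pairs, and with r = 0.777 after the group means were removed, where *Adh5* and *Aldh2* were higher at 0.805. These are descriptions over libraries that share their groups.

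*Aldh1b1*, a mitochondrial enzyme that also takes acetaldehyde, was at 38, 61.3 and 39.1 CPM in WT CTR, 75.6, 65.6, 67.5 and 99 in KO CTR, 79.4, 67.4, 79.2 and 61.9 in WT noCys, 106, 37.6 and 71 in KO noCys, 79.4 and 44.5 in WT noTrp, with 109, 70.7, 97.2, 94.5 and 94.2 in KO noTrp. The WT CTR libraries were below all KO CTR and WT noCys libraries, without a call (0.73 for KO CTR against WT CTR, SE 0.27, adjusted p = 0.341). *Aldh3a2*, the fatty aldehyde dehydrogenase of the endoplasmic reticulum, was at 290, 225 and 241 CPM in WT CTR, 262, 417, 238 and 162 in KO CTR, 281, 294, 215 and 276 in WT noCys, 258, 231 and 232 in KO noCys, 179 and 246 in WT noTrp, with 287, 239, 335, 213 and 314 in KO noTrp. Its groups overlapped in every comparison and none called it.

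**Figure D2:**
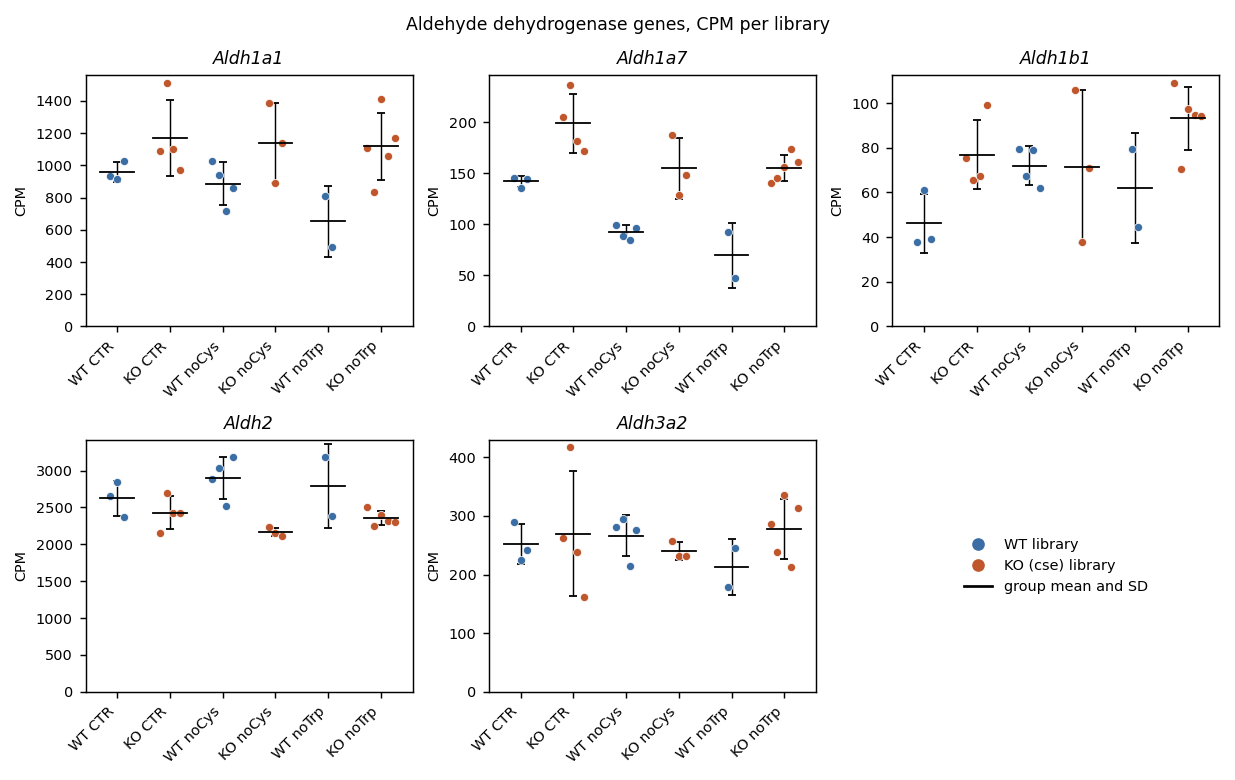
CPM of the 5 aldehyde dehydrogenase members in each of the 21 libraries (points), by group, with the group mean as a line and the SD as a bar. For *Aldh1a7* the KO libraries (129 to 237 CPM over all diets) lie above the WT libraries of the same diet, and for *Aldh2* the KO noCys libraries (2120 to 2230 CPM) lie below the WT noCys libraries.

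The sum of the hepatocyte markers differed between WT noCys and KO noCys as well. The summed level of the 9 of 10 listed hepatocyte markers found in the table was 108000 to 126000 CPM in WT noCys, against 48800 to 78800 CPM in KO noCys, and 92600 to 99500 CPM in KO CTR. In KO noTrp, where *Adh1* was at 1670 to 2030 CPM, the hepatocyte sum was 76100 to 97800 CPM and overlapped that of KO noCys. The summed pericentral markers (13000 to 16000 CPM in WT noCys, against 13700 to 15800 in KO noCys) and periportal markers (16200 to 17600 and 15000 to 20000) overlapped between these groups, though 4 of 10 pericentral markers (1 higher, 3 lower) and 4 of 8 periportal markers (2 higher, 2 lower) were called. For stellate cells, which store retinoids, the summed markers were 242 to 379 CPM in WT noCys, against 227 to 270 CPM in KO noCys. Markers of cholangiocytes (34.4 to 58.2 CPM in WT noCys, 16.3 to 18.6 in KO noCys), endothelial cells (91.8 to 146 and 84.5 to 85.8) and erythroid cells (183 to 375 and 128 to 158) were lower in KO noCys without overlap. The part of these markers in the fall of *Adh1*, *Adh4*, *Adh7* and *Aldh2* was not tested.

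To separate the diet from the genotype, KO noCys was compared with KO CTR. Within KO mice the removal of cysteine lowered *Adh4*, *Adh1* and *Adh7*. These 3 of 10 members were called, all lower, beside 20.2% of all tested genes (9.59% lower), and the members' median was -0.29 against 0 over all genes. The fold changes were -1.73 for *Adh4* (SE 0.18, adjusted p = 3.52e-06), -0.75 for *Adh1* (SE 0.12, adjusted p = 0.000192) and -1.08 for *Adh7* (SE 0.26, adjusted p = 0.00572), without overlap for any of them. All 3 were called in each of the 14 alternatives run for this comparison. *Adh6-ps1* stood at 2.64 to 10.2 CPM in KO CTR and 0.902 to 1.41 CPM in KO noCys, without overlap, and was not called (-2.35, SE 0.98, adjusted p = 0.0962), although DESeq2 (adjusted p = 0.0279), the fit with no filter on low counts (0.0445) and the fit of only the groups compared (0.00764) called it. *Aldh2* (-0.17, SE 0.11) and *Aldh1a7* (-0.36, SE 0.17) were not called within KO, where their groups overlapped, except that limma-voom called *Aldh1a7* (adjusted p = 0.047). Marker sums were lower in KO noCys than in KO CTR without overlap for hepatocytes (48800 to 78800 CPM against 92600 to 99500), cholangiocytes (16.3 to 18.6 against 19.8 to 62.7) and erythroid cells (128 to 158 against 179 to 338). Their part was not tested.

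Within WT, *Adh4* was the member called after cysteine removal (-0.74, SE 0.17, adjusted p = 0.0497), 1 of 10 members beside 0.661% of all genes, 0.271% lower. The WT noCys libraries (68 to 89.5 CPM) lay below the WT CTR libraries (103 to 145 CPM), but the call was lost in all 7 fits that left out a library of these groups (adjusted p 0.0642 to 0.247). *Adh1* was at 0.08 (SE 0.12) and *Adh7* at -0.64 (SE 0.25, adjusted p = 0.246) in the same comparison. *Aldh1a7* was lower in each WT noCys library than in each WT CTR library (-0.62, SE 0.17, adjusted p = 0.088), and 4 of the 14 alternatives called it, beside 5 for *Adh4*. *Adh6-ps1* stood at 2.39 to 29.4 CPM in WT noCys and 46.5 to 142 CPM in WT CTR, without overlap (-2.17, SE 0.69, adjusted p = 0.146), and was called by limma-voom (adjusted p = 0.0168) and with no filter on low counts (adjusted p = 0.0402). Summed periportal markers were 11800 to 15700 CPM in WT CTR and 16200 to 17600 in WT noCys, without overlap, and their part was not tested.

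The difference between the genotypes in their response to cysteine removal was tested as an interaction. *Adh1* fell by 0.83 more on the log2 scale in KO than in WT (SE 0.17, adjusted p = 0.00473) and *Adh4* by 0.99 more (SE 0.25, adjusted p = 0.0201), so 2 of 10 members were called, both lower, beside 7.44% of all genes (3.88% lower). The call of *Adh4* was lost without WT CTR replicate 3 (-0.86, adjusted p = 0.0534) or KO noCys replicate 3 (-0.88, adjusted p = 0.0781), and with library totals alone (-0.83, adjusted p = 0.0619). For *Adh7* the difference was -0.45 (SE 0.35, adjusted p = 0.484), for *Aldh2* -0.31 (SE 0.16, adjusted p = 0.254) and for *Aldh1a7* 0.26 (SE 0.24, adjusted p = 0.559), so a different response of these 3 was not shown. *Aldh1b1* was at -0.75 (SE 0.38, adjusted p = 0.241), not called. Of its 21 alternatives 2 called it, limma-voom (-0.98, adjusted p = 0.0465) and the fit without KO noCys replicate 1 (-1.14, adjusted p = 0.0473).

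**Figure D3:**
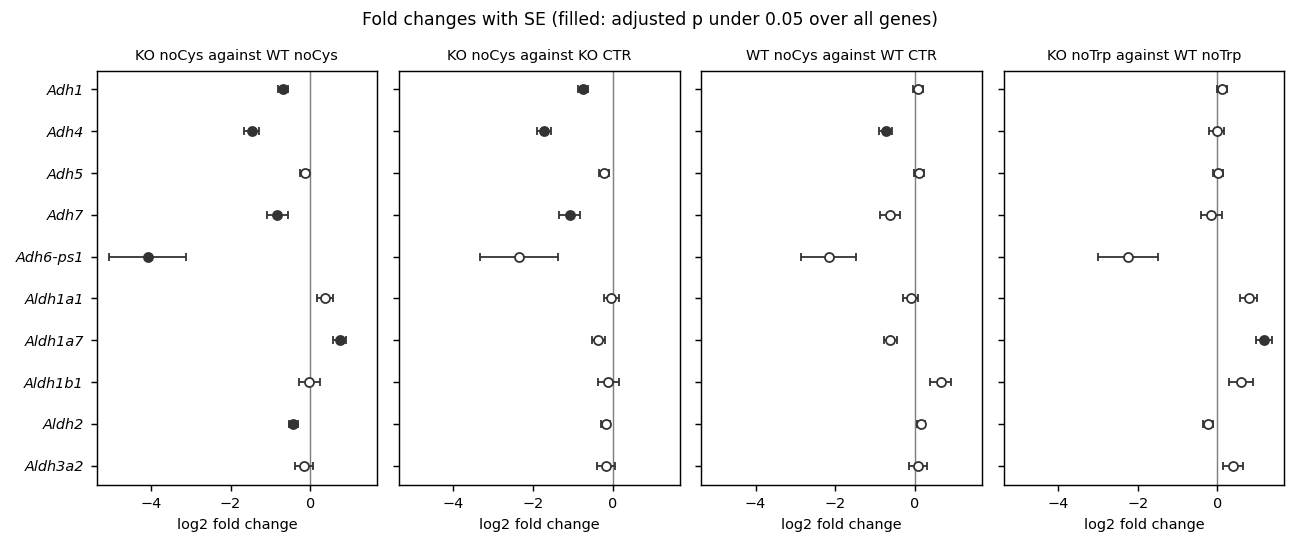
Log2 fold changes of the 10 members (points) with SE (bars) in 4 comparisons, filled where the adjusted p over all genes was under 0.05. *Adh4* and *Adh1* are near -1.47 and -0.69 in KO noCys against WT noCys and near -0.02 and 0.11 in KO noTrp against WT noTrp.

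The diet without tryptophan served as a control for the loss of an amino acid other than cysteine. In KO noTrp against WT noTrp the only member called was *Aldh1a7*, which was higher, 1 of 10 beside 0.195% of all genes (0.0696% higher). With 2 WT libraries the call rested on few animals and was lost without WT noTrp replicate 2 (0.75, adjusted p = 0.0511) or when only the groups compared were fitted (1.15, adjusted p = 0.207). *Adh1* (0.11, SE 0.13) and *Adh4* (-0.02, SE 0.19) differed little between the genotypes there. Summed pericentral markers were 12900 to 15000 CPM in WT noTrp and 16000 to 17800 in KO noTrp, without overlap, and their part was not tested. Within KO, noTrp against CTR called none of the 10 members beside 1.87% of all genes. *Adh4* came closest in that comparison (-0.54, SE 0.15, unadjusted p = 0.00202 by the edgeR quasi-likelihood test, adjusted p = 0.0691) and was the only member called there by DESeq2 (adjusted p = 0.0234). *Aldh1a7*, at -0.35 with an unadjusted p of 0.026 in the same edgeR test, was the only other member with an unadjusted p under 0.05.

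In WT, tryptophan removal was followed by lower *Adh4* (-1.0, SE 0.21, adjusted p = 0.0173) and lower *Aldh1a7* (-1.02, SE 0.21, adjusted p = 0.0135), 2 of 10 members beside 3.19% of all genes, 1.5% lower. Without WT noTrp replicate 2, the library with the lower *Aldh1a7*, neither was called (-0.98 with adjusted p = 0.0514 and -0.61 with adjusted p = 0.0734). *Adh4* was also not called without WT CTR replicate 1 (-0.89, adjusted p = 0.0594) or WT noTrp replicate 1 (-1.02, adjusted p = 0.102), nor by limma-voom (-1.03, adjusted p = 0.0851). When only the groups compared were fitted neither *Adh4* (adjusted p = 0.0963) nor *Aldh1a7* (adjusted p = 0.184) was called. *Adh4* was thus lower than in WT CTR in every WT library of either depleted diet. Stellate markers summed to 347 to 403 CPM in WT CTR and 223 to 284 in WT noTrp, and immune markers to 63.1 to 101 and 135 to 139, both without overlap, and their part was not tested.

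Among KO mice, the diets without cysteine and without tryptophan differed in *Adh1* (-0.89, SE 0.11, adjusted p = 5.92e-05) and *Adh4* (-1.19, SE 0.18, adjusted p = 0.000211), both lower without cysteine. These were 2 of 10 members beside 13.9% of all genes (6.75% lower), and both were called in all 15 alternatives of this comparison. Marker sums were lower in KO noCys than in KO noTrp without overlap for pericentral hepatocytes (13700 to 15800 CPM against 16000 to 17800), endothelial cells (84.5 to 85.8 against 112 to 147), immune cells (70 to 82.7 against 100 to 161) and cholangiocytes (16.3 to 18.6 against 26 to 48.9), and their part in these differences was not tested. *Adh7* lay at -0.66 (SE 0.25, adjusted p = 0.0782), with overlap between the groups, and was called by DESeq2 (adjusted p = 0.0406), without KO noCys replicate 4 (-1.01, adjusted p = 0.0257) and without KO noTrp replicate 1 (-0.79, adjusted p = 0.029). *Adh6-ps1* was called by DESeq2 alone of these alternatives (-2.29, adjusted p = 0.0383). Whether the genotype acted differently on the 2 depleted diets was tested directly. The genotype difference without cysteine minus that without tryptophan was -0.81 for *Adh1* (SE 0.17, adjusted p = 0.00862) and -1.45 for *Adh4* (SE 0.27, adjusted p = 0.00289), again 2 of 10 beside 6.35% of all genes (3.03% lower). *Adh1* was not called without WT noTrp replicate 1 (-0.73, adjusted p = 0.0502), while *Aldh1a7* then was (-0.98, adjusted p = 0.0214). For *Aldh1a7* with all libraries the value was -0.41 (SE 0.25, adjusted p = 0.367). The comparisons share libraries, since KO noCys stands in several of them.

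Because the KO line carries sequence of strain 129 and of C57BL/6 and the *Adh* cluster is linked to *Cth*, the cluster's surroundings were described in each genotype comparison. Within 20 Mb of *Cth*, 90 genes other than *Cth* were tested. On the control diet *Adh6-ps1* was the only one of them called (1.11%, beside the 0.32% of all genes), and none was called within 10 Mb. Gm43314, at or beside *Cth*, was lower there in all KO libraries (0 to 0.535 CPM) than in all WT libraries (2.12 to 3.14 CPM). Its fold change was -3.23 (SE 0.72, adjusted p = 0.055), without a call. In KO noCys against WT noCys 25.6% of the 90 were called, beside 28.2% of all genes, and in KO noTrp against WT noTrp 2.22%, beside 0.195% of all genes. These last were 2 genes at or beside *Cth*, Gm43314 and Gm6520, both lower in KO, so that 5.88% of the genes within 10 Mb and 11.1% of those within 5 Mb were called there. Of the 16 tested genes outside the family within 1 Mb of the cluster, none was called in KO CTR against WT CTR. In KO noCys against WT noCys *Trmt10a*, a tRNA methyltransferase gene, was higher (1.39, adjusted p = 1.23e-05) and 0610031O16Rik was lower. The KO libraries were above the WT libraries in *Trmt10a* on the other diets too, at 9.53 to 12.8 CPM against 4.55 to 7.67 on the control diet (0.84, adjusted p = 0.055) and 8.11 to 10.5 CPM against 4.43 to 7.1 without tryptophan (0.75, adjusted p = 0.153), without a call. For the genotype comparisons, the loss of *Cth* and sequence carried along with its knockout allele cannot be told apart. The comparisons within KO mice have the knockout allele in both groups, but the alleles each animal carried at the *Adh* cluster are not given. *Adh1* and *Adh4* were called in KO noCys against KO CTR and against KO noTrp. The part of linked sequence in these differences was not tested.

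**Figure D4:**
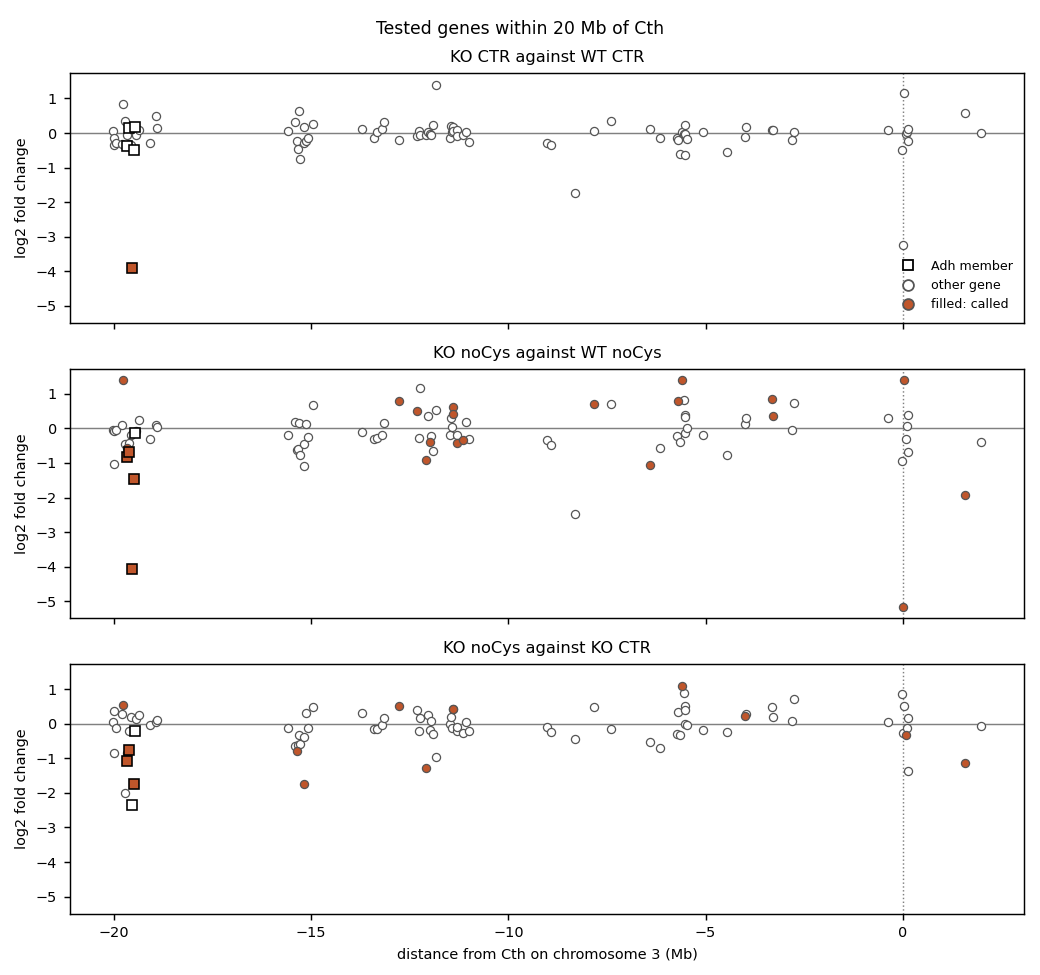
Log2 fold change of the 90 tested genes within 20 Mb of *Cth* (vertical axis) by distance from *Cth* on chromosome 3 (horizontal axis, Mb), in 3 comparisons, with squares for *Adh* members and filled symbols for called genes. On the control diet *Adh6-ps1* at -3.90 is the only filled symbol, and in KO noCys against KO CTR the filled members are *Adh4*, *Adh7* and *Adh1*.

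The rest of both families, taken by symbol, held 19 genes, of which 14 passed the filter. In KO noCys against WT noCys 5 of the 14 were called (35.7%, beside 28.2% of all genes), 3 lower and 2 higher. *Aldh7a1*, which acts in lysine breakdown, was lower at -0.72 (SE 0.12, adjusted p = 0.000161), with 516 to 607 CPM in WT noCys, against 281 to 402 CPM in KO noCys. *Aldh4a1*, which oxidizes the pyrroline-5-carboxylate made from proline, was lower at -0.49 (SE 0.10, adjusted p = 0.00116), and *Aldh8a1*, of the kynurenine pathway, at -0.36 (SE 0.12, adjusted p = 0.028), a call lost without WT noCys replicate 1 or KO noCys replicate 3 or 4 (adjusted p 0.0585, 0.138 and 0.103) or with no filter on low counts (0.0733). With library totals alone neither was called (*Aldh4a1* -0.29, adjusted p = 0.0503; *Aldh8a1* -0.15, adjusted p = 0.323). *Aldh7a1* and *Aldh4a1* were also called in the interaction of genotype with cysteine removal (-0.78 and -0.61, adjusted p = 0.00736 and 0.0137), the second not without KO noCys replicate 3 (-0.51, adjusted p = 0.0557) or with library totals alone (-0.46, adjusted p = 0.0736).

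The 2 genes that were higher were rare transcripts. *Aldh1l2*, the mitochondrial formyltetrahydrofolate dehydrogenase, stood at 0.113 to 0.35 CPM in WT noCys, against 1.24 to 3.29 CPM in KO noCys (3.22, SE 0.55, adjusted p = 0.000266). *Aldh18a1*, the enzyme that makes pyrroline-5-carboxylate from glutamate, stood at 0.525, 0.451, 0.095 and 0.151 CPM in WT noCys, against 0.451, 5.53 and 2.38 CPM in KO noCys. Its groups overlapped although it was called (3.24, SE 0.60, adjusted p = 0.000521). *Aldh7a1*, *Aldh4a1*, *Aldh1l2* and *Aldh18a1* were also the 4 of 14 called (28.6%) in KO noCys against KO CTR (20.2% of all genes), in KO noCys against KO noTrp (13.9%) and in the genotype difference without cysteine minus without tryptophan (6.35%). Without KO noCys replicate 3 *Aldh18a1* was called in none of these 3 (adjusted p 0.276, 0.209 and 0.11). With the replicate block it was not called in KO noCys against KO noTrp (adjusted p = 0.0595) or in the genotype difference (adjusted p = 0.0624). *Aldh1l2* was not called with that block in the genotype difference either (adjusted p = 0.0748). In the last of them *Aldh1l2* was not called in most fits that left out a library (adjusted p up to 0.404), and *Aldh4a1* not without WT noTrp replicate 1 (adjusted p = 0.0798) or with library totals alone (adjusted p = 0.0852). None of the 14 was called in KO CTR against WT CTR, KO noTrp against WT noTrp, KO noTrp against KO CTR or either WT diet comparison.

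Other genes of ethanol, retinoid and carbonyl metabolism were counted in KO noCys against WT noCys, from lists written for the pathways, and each count stands beside the 28.2% of all genes called there (13.4% lower, 14.8% higher). For ethanol and acetate, 2 of 6 tested genes (33.3%) were called: *Acss2*, which turns acetate into acetyl-CoA, was lower (-0.73, adjusted p = 0.00183) and *Acaca*, the acetyl-CoA carboxylase, higher (0.60, adjusted p = 0.0207) with overlap between the groups. For retinoid handling, 7 of 24 (29.2%, near the share of all genes) were called, 6 lower and 1 higher. The retinol dehydrogenase gene *Rdh10* was lower (-0.51, SE 0.12), as was *Cyp26b1*, which degrades retinoic acid (-1.11, SE 0.22). *Cyp26b1* was also lower in all KO libraries on the control diet (-0.70, adjusted p = 0.218) and without tryptophan (-0.50, adjusted p = 0.483), without a call. In KO noCys against KO CTR it was at 0.10 (SE 0.22), with overlap. *Rbp4*, the serum retinol carrier, was higher, at 4550 to 5280 CPM in WT noCys, against 6790 to 6940 CPM in KO noCys (0.53, SE 0.09, adjusted p = 0.000348).

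For aldehyde and carbonyl reductases with the aldehyde oxidases, 10 of 20 (50%) were called, 4 higher and 6 lower. *Aox1* was higher, at 28.4 to 33.2 CPM in WT noCys, against 75.9 to 100 CPM in KO noCys (1.47, SE 0.18), whereas *Aox3*, its neighbour in the family, was lower, at 159 to 234 CPM and 67.8 to 86.1 CPM in the same groups (-1.23, SE 0.20). *Akr1a1*, the aldehyde reductase, was higher (0.54, SE 0.08) and *Akr1c20* lower (-1.09, SE 0.16). Around *Adh5*, 2 of 8 genes of formaldehyde and nitrosothiol handling (25%) were called: *Shmt2* (0.34, SE 0.08) and *Esd* (0.23, SE 0.08), the S-formylglutathione hydrolase that acts after *Adh5*, both higher while *Adh5* was not called.

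The gene outside the list whose log2 CPM was most like each member over the 21 libraries was taken by Pearson r, as a description of libraries that share groups and depth. For *Adh4* this was *Ghr*, the growth hormone receptor (r = 0.964, and 0.864 after group means were removed), and for *Adh1* it was *Aldh4a1* (0.944, and 0.748). *Adh5* was most like *Pex7* (0.909), *Adh7* like *Aagab* (0.902) and *Adh6-ps1* like *Trim30d* (0.88, falling to 0.511 within groups). For the *Aldh* members the genes were *Ugdh* for *Aldh1a7* (0.892), *Apoe* for *Aldh2* (0.883), *Ces1g* for *Aldh1a1* (0.859), *Acaa1b* for *Aldh3a2* (0.831) and *Serpina3m* for *Aldh1b1* (0.79). Among members, *Adh4* followed *Adh7* with r = 0.774 over all libraries and 0.069 within groups, so their shared pattern lay between the groups.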

How the data were processed

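Liver poly(A) RNA was sequenced from both ends. Per the labels and the methods, the authors aligned reads to GRCm38 with HISAT2 2.1.0 and made the deposited counts per gene with htseq-count (HTSeq 0.11.0), without normalization; the annotation release and strand setting are not given in the sources used here, and the library kit is not stated to mark strand. The authors then tested with DESeq2, and no result of theirs was used. Of the table's columns 1 matched no sample and was not used. Symbols, coordinates and exon lengths came from GENCODE M21. Groups and replicate numbers came from the sample titles.

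The tests used edgeR 4.0.16 under R 4.3.3. The filter was filterByExpr (minimum count 10, minimum total 15), the scaling was TMM (factors 0.883 to 1.14), and 1 one-way model over the 6 groups took in all 21 libraries. Each of 10 comparisons was tested two-sided by the quasi-likelihood F-test with Benjamini-Hochberg adjustment over 14370 genes, and called at an adjusted p under 0.05. The test was checked on simulated counts. Log2 CPM for correlations used a prior count of 2. Alternatives were DESeq2 1.42.0, limma-voom 3.58.1 with quality weights, other scalings, no filter, only the compared groups, a replicate block and each library left out. The p-values set each difference against the spread between these samples, estimated for each gene from the 6 groups together.

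The members and lists were chosen with earlier results of these data known. Named genes were the 10 members, the rest of both families where called, up to 4 genes of each other list with the smallest adjusted p in KO noCys against WT noCys, *Cth*, the gene most like each member, and genes called near *Cth* on the control diet. A gene that this rule names among those of retinoid handling is not reported here. *Trmt10a*, 0610031O16Rik, Gm43314 and Gm6520 were named after their values were seen. RefSeq promoter windows were not held for *Aldh2* and *Adh6-ps1*.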

Additional observations from a re-analysis of the deposited data

Results flagged for a closer look

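Within the groups of 4 or 5 libraries, 30 sets of member values were checked for a library far from the others by Dixon's criterion, which chance meets in about 1 of 20 sets. There were 2, both in *Adh6-ps1*. WT noCys replicate 1 stood at 2.39 CPM with the next library at 26.7 CPM, a gap of 0.899 of the group's range. KO noTrp replicate 4 stood at 16.6 CPM with the next library at 5.23 CPM, a gap of 0.73 of the range.

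The response to cysteine removal differed between the genotypes for *Adh1* (-0.83, adjusted p = 0.00473) and *Adh4* (-0.99, adjusted p = 0.0201) by the interaction term of the edgeR fit. The genotype difference likewise differed between the diets without cysteine and without tryptophan for *Adh1* (-0.81, adjusted p = 0.00862) and *Adh4* (-1.45, adjusted p = 0.00289). The first *Adh4* difference was not called without WT CTR replicate 3 (adjusted p = 0.0534), without KO noCys replicate 3 (adjusted p = 0.0781) or with library totals alone (adjusted p = 0.0619), and the second *Adh1* difference not without WT noTrp replicate 1 (adjusted p = 0.0502). Their causes were not tested.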

How the results depend on the processing

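Of 700 fold changes of members under the alternatives that kept all libraries, 655 kept their direction and their side of the threshold, 10 lost a call, 18 gained one and 17 changed sign without a call on either side; of 850 with a library left out these were 778, 23, 6 and 43. No called value changed direction. The number of members called was 6 in KO noCys against WT noCys (5 to 6 with a library left out), 3 in KO noCys against KO CTR (3 in each) and 2 in the genotype difference without cysteine minus without tryptophan (2 in each), within 1.5 times under every alternative. In WT noCys against WT CTR, where 1 was called, DESeq2 and the fit of only the groups compared called 2, limma-voom with quality weights and the fit with no filter on low counts called 3, and library totals alone and the replicate block called 0, as did every fit without a library. In KO noTrp against WT noTrp DESeq2 called 2 and the fit of only the groups compared 0 (0 to 1 with a library left out). In KO noTrp against KO CTR DESeq2 and the fit with no filter called 1 (0 to 1). In WT noTrp against WT CTR limma-voom called 1 and the fit of only the groups compared 0 (0 to 2). DESeq2 called 4 in KO noCys against KO noTrp (2 to 3), and library totals alone called 1 in the interaction of genotype with cysteine removal (1 to 3). KO CTR against WT CTR gave 0 to 1 with a library left out. No gene was called within 5 or 10 Mb of *Cth* on the control diet. The causes were not tested.

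Correlations of deviations between libraries with the same replicate number ran from -0.36 to 0.35, over 0.1 in 9 of 41 pairs. Among the replicate 1 libraries of the depleted diets they were 0.144 to 0.353, except WT noCys with KO noCys at 0.0051. Libraries with different numbers were not compared, so these values cannot decide whether the numbers pair the samples. The replicate block moved the count of members called by more than 1.5 times only in WT noCys against WT CTR, to 0 (*Adh4* -0.81, adjusted p = 0.0898). At 8 to 1341 counts *Adh6-ps1* was the member with the least depth.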
